A study of Mus musculus with 6 samples.

Results

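The integrated stress response is the cell's answer to amino acid shortage, unfolded protein in the endoplasmic reticulum, viral RNA or haem deficiency. It was followed here through 10 of its regulators: the transcription factors Atf4, Atf5, Ddit3 (which encodes CHOP), Cebpb and Cebpg, the chromatin-associated stress protein Nupr1, the feedback genes Trib3 and Ppp1r15a, and the growth inhibitors Ddit4 and Sesn2. They were chosen by symbol from the table of all genes, and each symbol stood on 1 of its 26096 rows. All 10 passed the filter on low values in both groups, with a lowest value of 216 normalized counts.

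In this pathway, kinases that sense different stresses phosphorylate the initiation factor eIF2, which lowers protein synthesis in general while letting ribosomes reach the coding sequence of Atf4 mRNA. ATF4 protein then pairs with other leucine zipper proteins, C/EBP factors among them, and switches on genes of amino acid supply, CHOP, and proteins that end the response. Much of the control of ATF4 is therefore at translation and protein stability, which RNA sequencing does not measure.

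RNA was sequenced from 6 samples labelled as wild-type (WT) mouse microglia, which are brain macrophages. In 3 samples the cells had received culture medium from normal bone marrow-derived macrophages (control medium), and in the other 3 samples medium from macrophages in ferroptosis, a death that depends on iron and the peroxidation of lipids (ferroptotic medium). The inducer of ferroptosis, whether any of it was carried over in the medium, the exposure time and where the microglia came from are unstated in the sources used here. Since the labels name no separate cultures, the scatter between these 3 samples of a group may be technical only. Each p-value rests on that scatter, which limma drew towards a trend over all genes tested.

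Each library held between 39624311 and 50557794 reads assigned to genes, a number worked out from the deposited values. The myeloid genes Csf1r, Spi1 and Lyz2 were abundant, while the microglial markers P2ry12 and Tmem119 had 3 and 21 reads over the 6 libraries, so the cells did not show those defining markers of resident microglia. Of 8 listed macrophage genes, 3 were higher, 2 lower and 3 did not pass. Marker lists of other cell types were summed in each group. The 3 neuronal markers with a row, of 6 listed, summed to 5.88 to 16.6 normalized counts with control medium and 55.3 to 69.6 with ferroptotic medium, with Tubb3 at 4.99 ± 2.54 and 61.3 ± 5.64, and Nefl at 3 reads and Map2 at 21 reads over the 6 libraries. The 5 of 8 monocyte and neutrophil markers with a row summed to 152 to 188 and 322 to 373, with S100a8 higher and Mpo and Elane at 7 and 3 reads. The 5 of 6 fibroblast markers summed to 11.7 to 11.8 and 44.0 to 76.4, mostly Dcn, with Col1a2 at 1 read. The 5 of 8 oligodendrocyte markers summed to 8821 to 9383 and 6139 to 6351, mostly Mbp. The 5 of 6 endothelial markers summed to 2100 to 2356 and 2248 to 2435, mostly Flt1, with Pecam1 higher. The 6 of 7 astrocyte markers summed to 3357 to 3652 and 4182 to 4362, with Gja1 and Aldoc higher, Aldh1l1 lower and Slc1a2 and Slc1a3 at 3 and 5 reads. Of 15 ribosomal protein genes, 10 were higher and 0 lower, with a median log2 difference of 0.10. They were listed with RNA quality in mind, but their levels do not measure it. Among all genes tested, 19.7% were called higher (limma adjusted p of 0.05) and 22.8% lower. The part of these differences in the results on the regulators was not tested. In bulk RNA, a change in the number of cells of a type and a change in RNA per cell cannot be told apart.

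Short stretches at the starts of 4 of these genes, before the start in 3 of them and after it in Trib3, are shown because sequence elements bound by ATF and C/EBP pairs, by CREB-like factors and by AP-1 were found there. RefSeq (build GRCm38.p6) gave promoters for all 10 genes, 11 in all, each 300 bases long, from 250 bases before the transcription start to 50 bases after it. Both strands were searched for the C/EBP-ATF element TGATGNAA, the cAMP response element TGACGTCA and the AP-1 element as TGACTCA or TGAGTCA, which do not overlap each other in these promoters. Capitals mark the match, and each sequence runs 5′ to 3′ on the strand of the gene.
Nupr1, chr7:126625471-126625720, minus strand: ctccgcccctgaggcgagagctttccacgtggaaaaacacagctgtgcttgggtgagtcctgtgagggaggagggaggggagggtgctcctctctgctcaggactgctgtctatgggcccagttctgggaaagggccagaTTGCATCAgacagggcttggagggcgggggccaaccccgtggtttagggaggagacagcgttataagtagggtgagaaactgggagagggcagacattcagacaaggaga
Trib3, chr2:152344028-152344057, minus strand: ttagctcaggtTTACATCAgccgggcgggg
Ppp1r15a, chr7:45526269-45526518, minus strand: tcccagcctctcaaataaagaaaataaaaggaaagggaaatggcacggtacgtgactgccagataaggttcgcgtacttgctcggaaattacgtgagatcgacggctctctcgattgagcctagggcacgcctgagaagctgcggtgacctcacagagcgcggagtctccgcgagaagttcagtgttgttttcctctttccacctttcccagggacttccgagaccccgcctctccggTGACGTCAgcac
Ddit3, chr10:127290543-127290792, plus strand: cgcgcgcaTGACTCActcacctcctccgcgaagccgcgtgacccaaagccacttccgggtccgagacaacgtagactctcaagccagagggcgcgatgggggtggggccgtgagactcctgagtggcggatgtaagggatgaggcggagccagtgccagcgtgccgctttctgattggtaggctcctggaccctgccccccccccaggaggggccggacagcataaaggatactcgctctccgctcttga

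The C/EBP-ATF element stood in 2 of the 11 promoters, those of Nupr1 and Trib3, in both on the opposite strand, and in 3.97% of all 32851 promoters of this length. In Trib3 it lay just after the start, so only 30 bases are shown. The cAMP response element stood in 1 of the 11, that of Ppp1r15a, at positions -12 to -5 from the start, against 1.79% of all promoters. The AP-1 element stood in 1 of the 11, that of Ddit3, at -242 to -236, against 5.2%. The CCAAT box, in either orientation, stood in 6 of the 11 and in 37.4% of all promoters, and in Atf4 it began at -117 and at -76. These are matches of letters and not measured binding.

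All 10 were higher with ferroptotic medium, with a median log2 difference of 1.61 and a range from 0.59 for Cebpg to 2.78 for Ddit4. Of all 15597 genes tested, 19.7% were called higher (limma adjusted p of 0.05) and the median difference was -0.01. In every one of the 10 the lowest library given ferroptotic medium lay above the highest control library, which was so for 25.6% of all genes tested. A rise of at least 2-fold that passed the test was found in 9 of the 10 and in 3.95% of all genes. Together the 10 genes took 378, 454 and 483 CPM (reads scaled to the library total) with control medium and 1239, 1179 and 1208 CPM with ferroptotic medium.

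**Figure D1:**
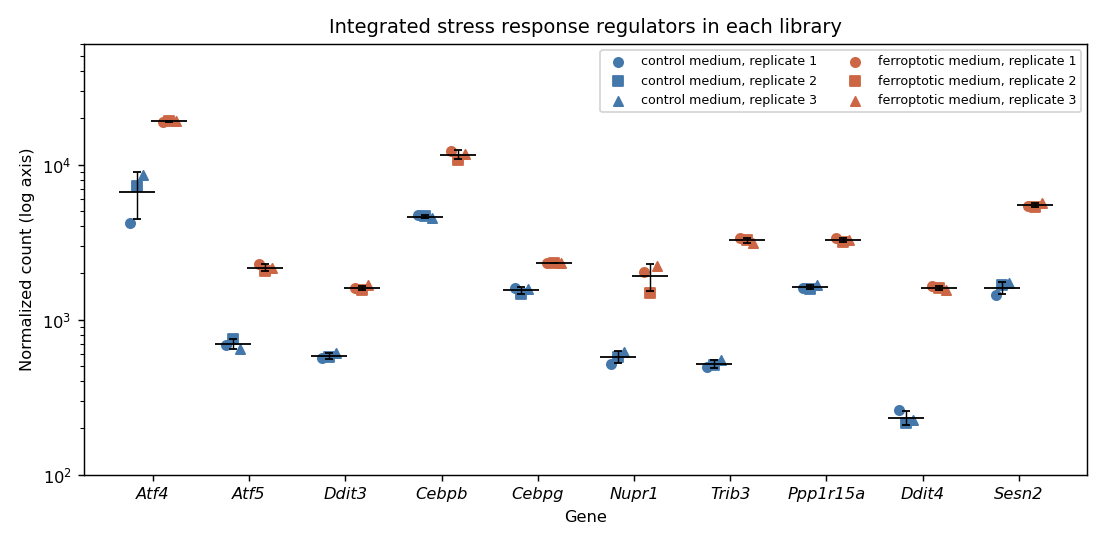
Normalized counts (log axis) of the 10 regulators in each of the 6 libraries; marker shapes give the replicate, black bars the mean and whiskers the SD of 3 libraries. For every gene the 3 libraries given ferroptotic medium lie above the 3 control libraries, and control replicate 1 of Atf4 (4187) lies well below the other 2 (7336 and 8568).

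Atf4, the central transcription factor of the response, had 4187, 7336 and 8568 normalized counts in the control libraries and 18842, 19053 and 19255 with ferroptotic medium. The control libraries were spread widely, with replicate 1 lowest, while the libraries given ferroptotic medium lay close together. The mean went from 6697 ± 2259 to 19050 ± 206 (SD, n = 3 per group), a log2 difference of 1.57 (SE 0.30; limma adjusted p = 0.0147). Of the 10 genes Atf4 had the largest standard error and the least firm call. Leaving out any 1 of the libraries given ferroptotic medium kept the difference between 1.56 and 1.58 but gave limma adjusted p-values of 0.0517 to 0.055, and without control replicate 1 the difference was 1.26 (limma adjusted p = 9.77e-06). In the authors' deposited table Atf4 had a false discovery rate of 6.19e-07.

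The low Atf4 value in control replicate 1 was not matched in size by the other regulators. Ddit3, Nupr1, Trib3 and Sesn2 were also lowest in that library, but by less. Atf5, Cebpb, Cebpg, Ppp1r15a and Ddit4 were lowest in another control library. Relative to the mean of the 3 control libraries, Atf4 in replicate 1 stood at -0.61 on the log2 scale, while the other 9 genes lay between -0.16 and 0.16, with a median of -0.02. The 40 measured genes of a list of ATF4 and CHOP targets had a median of -0.03 in that library, and all genes tested one of -0.003. The other 9 regulators took 280, 282 and 284 CPM in the 3 control libraries, against 98.5, 173 and 200 for Atf4. A mean within 2-fold of that of Atf4 was found for 1191 genes, Atf4 itself included. Of these, 5 (0.42%), Atf4 among them, had a range between the control libraries of at least the 1.03 log2 units of Atf4. The median range of the 1191 genes was 0.07. The authors' deposited FPKM values, which are scaled for gene length, gave Atf4 the same order of control libraries, 37.0, 64.8 and 75.1.

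**Figure D2:**
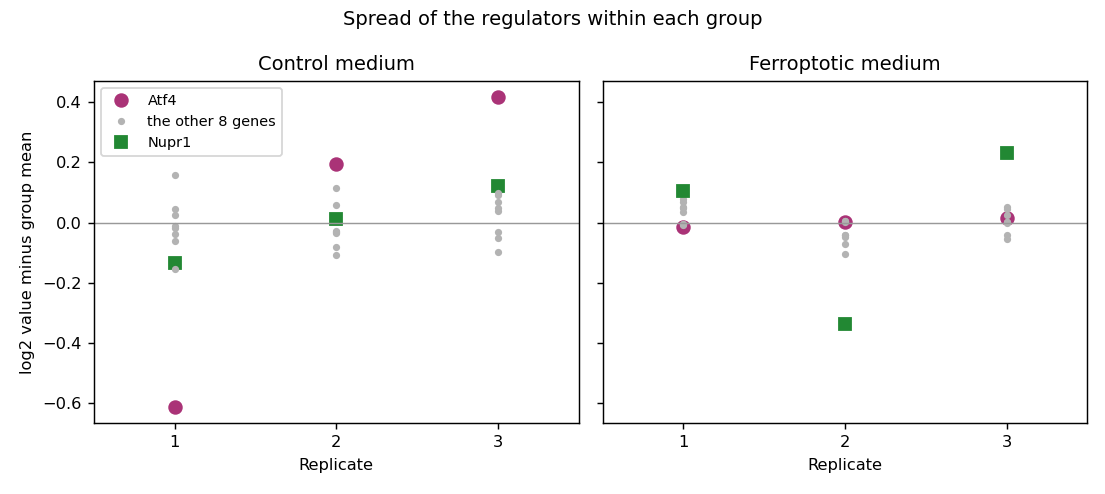
Deviation of each regulator's log2 value from its group mean in each replicate, for the control libraries (left) and those given ferroptotic medium (right). Atf4 (circles) is at -0.61 in control replicate 1, and Nupr1 (squares) is the gene with the widest spread, 0.57 log2 units, in the ferroptotic medium group.

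Atf5, a close relative of ATF4 with a part in the mitochondrial stress response, had 686, 751 and 649 normalized counts with control medium and 2272, 2063 and 2167 with ferroptotic medium. The groups were far apart compared with their spread. The log2 difference was 1.64 (SE 0.07; limma adjusted p = 4.86e-07), against a standard error of 0.30 for Atf4.

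Ddit3 encodes CHOP, a factor that ATF4 induces and that is known for its part in death under lasting stress. It had 569, 574 and 613 normalized counts with control medium and 1597, 1560 and 1665 with ferroptotic medium, and the groups did not overlap. It thus rose from 585 ± 24.1 to 1607 ± 52.9, a log2 difference of 1.46 (SE 0.07; limma adjusted p = 4.92e-07). A second gene model at the Ddit3 locus, which shares 105 of the 1713 exon bases of Ddit3 on the same strand in GENCODE M21, had 7 reads over the 6 libraries.

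The 2 C/EBP members, which pair with ATF4 and with CHOP, rose with 95% intervals of the log2 difference that were apart, 1.21 to 1.44 for Cebpb and 0.47 to 0.71 for Cebpg. Cebpb, which also drives inflammatory genes in macrophages, had 4715, 4641 and 4532 normalized counts with control medium and 12241, 10792 and 11783 with ferroptotic medium, a log2 difference of 1.32 (SE 0.05; limma adjusted p = 1.8e-07). Cebpg, a partner of ATF4 that lacks an activation domain, had 1594, 1462 and 1588 against 2318, 2333 and 2330, a log2 difference of 0.59 (SE 0.05; limma adjusted p = 3.3e-05). Cebpg had the smallest rise of the 10, and 12.6% of all genes tested rose more, but its groups did not overlap. Of the exon bases of Cebpb, 20.7% are shared with Tmem189 on the opposite strand, and whether the reads were counted by strand is unstated in the sources used here. Tmem189 had 5053 ± 1186 and 7076 ± 807 normalized counts (log2 difference 0.51, limma adjusted p = 0.126).

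Nupr1, a small stress-induced chromatin protein, had 521, 576 and 623 normalized counts with control medium and 2018, 1483 and 2204 with ferroptotic medium. Replicate 2 of the ferroptotic medium group was lower than the other 2 libraries of that group but well above every control library. The log2 difference was 1.71 (SE 0.15; limma adjusted p = 9.88e-05), and it was 1.60 to 1.88 when 1 library was left out at a time.

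The feedback genes differed from each other in the size of their rise. Trib3 encodes a pseudokinase that binds ATF4 and CHOP and dampens their activity, and it had 498, 507 and 553 normalized counts with control medium and 3388, 3270 and 3142 with ferroptotic medium. That is a log2 difference of 2.65 (SE 0.06; limma adjusted p = 2.63e-08), and 0.583% of the genes tested rose more. Ppp1r15a encodes GADD34, the inducible subunit that brings a phosphatase to phosphorylated eIF2 and so restores translation. It had 1607, 1584 and 1675 against 3371, 3156 and 3262 normalized counts, a log2 difference of 1.01 (SE 0.05; limma adjusted p = 7.6e-07). The 95% intervals of these differences, 2.50 to 2.80 for Trib3 and 0.90 to 1.12 for Ppp1r15a, were far apart.

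Both growth inhibitors, which act on the nutrient-sensing kinase complex mTORC1, rose. Ddit4 encodes REDD1, which acts through the TSC complex, and had 261, 216 and 225 normalized counts with control medium and 1646, 1613 and 1559 with ferroptotic medium. Its log2 difference of 2.78 (SE 0.09; limma adjusted p = 9.25e-08) was the largest of the 10, and 0.474% of all genes tested rose more. Sesn2 encodes a leucine sensor that restrains mTORC1 and is also a p53 target, and it had 1439, 1669 and 1714 against 5436, 5307 and 5627 normalized counts. The mean of Sesn2 went from 1607 ± 148 to 5457 ± 161 (1.77, SE 0.07; limma adjusted p = 2.33e-07).

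**Figure D3:**
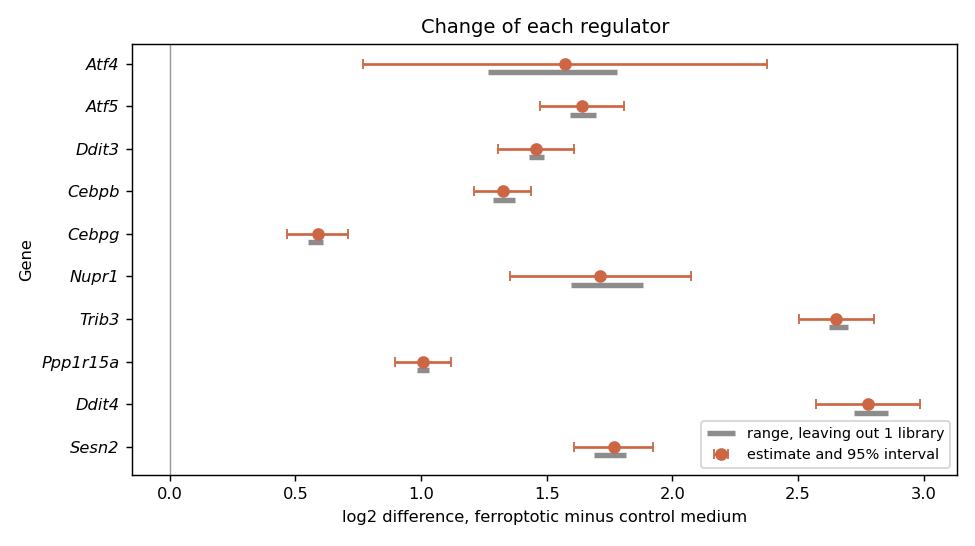
Log2 difference (ferroptotic minus control medium) of each regulator with its 95% interval (points and whiskers), and the range of the difference when 1 of the 6 libraries is left out (grey bars). All intervals lie above 0. Ddit4 (2.78) and Trib3 (2.65) are highest, Cebpg (0.59) is lowest, and Atf4 has the widest interval, 0.77 to 2.38.

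The levels of the regulators relative to each other can be read from the authors' deposited FPKM values, which cover 9 of the 10 genes and leave out Cebpg. With control medium Cebpb and Atf4 stood highest, at 63.9 ± 1.58 and 59.0 ± 19.7 FPKM, and these did not differ beyond their spread. Ppp1r15a (11.5 ± 0.285 FPKM) and Sesn2 (9.62 ± 0.849) came next, then Atf5 (7.25 ± 0.564) and Ddit3 (7.10 ± 0.264), whose values overlapped, as did those of Trib3 (5.07 ± 0.265) and Nupr1 (4.73 ± 0.401). Ddit4 was lowest, at 2.76 ± 0.282.

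With ferroptotic medium every one of the 9 genes had another place in the order. Atf4 (166 ± 1.08 FPKM) and Cebpb (158 ± 9.8) exchanged the first places and overlapped in both groups. Trib3 moved from place 7 to place 4, at 31.5 ± 1.45, and overlapped with Sesn2 at 32.2 ± 0.662. Ppp1r15a (22.8 ± 0.768) and Atf5 (22.3 ± 1.08) overlapped, and so did Ddit3 (19.3 ± 0.452) and Ddit4 (18.8 ± 0.668), although with control medium Ddit3 had been well above Ddit4. Nupr1 was last, at 15.5 ± 2.96.

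**Figure D4:**
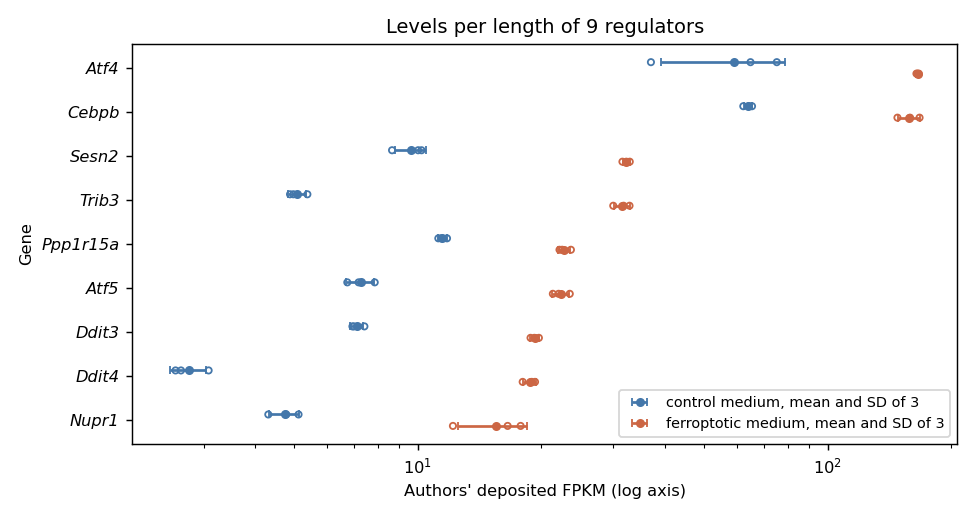
Authors' deposited FPKM (log axis) of 9 regulators in each library (open circles), with the mean and SD of 3 libraries (filled circles and whiskers) for control and ferroptotic medium. Atf4 and Cebpb lie above the others in both groups, and Trib3 and Ddit4 show the largest shifts.

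Most targets of the 2 factors ATF4 and CHOP rose as well. Of 43 listed target symbols 40 could be tested. Of these 37 rose, 0 fell and 3 did not pass, with a median log2 difference of 1.05. The shares over all genes tested were 19.7% higher and 22.8% lower. The members with the smallest p-values were the cystine importer Slc7a11 (2.75, SE 0.04), the glutathione-degrading enzyme Chac1 (3.63, SE 0.07), the autophagy receptor Sqstm1 (1.67, SE 0.03) and the cysteine-producing enzyme Cth (2.67, SE 0.05), with limma adjusted p-values of 8.65e-09 or lower. The 3 that did not pass were Cbs, at 19.7 ± 6.46 and 17.8 ± 16.4 normalized counts, Slc7a3, at 7.19 ± 6.30 and 12.3 ± 5.25, and Pmaip1, which encodes the death protein NOXA. The Pmaip1 mean was 650 ± 33.9 with control and 888 ± 450 with ferroptotic medium, a log2 difference of 0.28 (SE 0.50; limma adjusted p = 0.706), and without replicate 1 of the ferroptotic medium group its difference was 0.81 (limma adjusted p = 0.000335). Fgf21 had 3 reads over the 6 libraries, and Mars1 and Vldlr had no row under these symbols. Mars1 is the newer symbol of Mars, which is also listed and rose (0.21, SE 0.04). The list was written with earlier results of these libraries known, so its direction is not independent evidence.

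Of 20 genes around eIF2, 2 rose, 7 fell and 11 did not pass, with a median log2 difference of -0.08. Over all genes tested 19.7% were called higher and 22.8% lower. Among the 4 eIF2 kinases, Eif2ak2, which encodes the interferon-induced and RNA-sensing PKR, fell from 11526 ± 222 to 7134 ± 216 normalized counts (-0.69, SE 0.04; limma adjusted p = 9.89e-07). Eif2ak4, which encodes the amino acid sensor GCN2, was lower by little (-0.14, SE 0.04; limma adjusted p = 0.0366), a call lost in every fit without 1 of these libraries: control replicate 1 (adjusted p = 0.0652), 2 (0.107) or 3 (0.102) and ferroptotic replicate 1 (0.0735), 2 (0.0565) or 3 (0.0819). It was lost as well with quantile normalization (-0.09, adjusted p = 0.158), with upper-quartile scaling (-0.09, 0.17) and with no filter on low values (0.0646). Eif2ak3, which encodes the endoplasmic reticulum sensor PERK (-0.11, SE 0.06; limma adjusted p = 0.164), and Eif2ak1, which encodes the haem-regulated HRI (-0.02, SE 0.05; limma adjusted p = 0.746), did not pass. The difference of Eif2ak1 was 0.03 with quantile normalization and with upper-quartile scaling. The genes that rose were Impact (0.69, SE 0.07), an inhibitor of GCN2 activation, and Ppp1r15b (0.22, SE 0.04), the constitutive counterpart of Ppp1r15a. The eIF2 gamma subunit gene Eif2s3x fell (-0.22, SE 0.04; limma adjusted p = 0.00161). The most abundant genes that did not pass were Gcn1l1 (-0.01, but 0.01 with quantile normalization and 0.04 with upper-quartile scaling) and the eIF2 beta subunit gene Eif2s2 (0.37, SE 0.15; limma adjusted p = 0.105), which passed without replicate 1 of the ferroptotic medium group (0.53, limma adjusted p = 2.12e-05), with limma-voom (0.0483) and with limma with trend but not robust (0.0476). Without that library 4 genes of the list rose, and without control replicate 1 there were 4 that fell. Activity of the kinases is set by their phosphorylation, which was not measured.

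Of 22 genes listed for the IRE1 and ATF6 arms and their chaperones 21 could be tested, of which 7 rose, 8 fell and 6 did not pass, with a median of -0.04, beside 19.7% higher and 22.8% lower over all genes tested. Ern1, which encodes the sensor IRE1, rose from 1902 ± 64.0 to 3874 ± 111 normalized counts (1.03, SE 0.05; limma adjusted p = 5.49e-07), while its target Xbp1 had 3430 ± 104 and 3433 ± 38.0 (0.002, SE 0.04), which did not pass. The co-chaperone Dnajb9 (0.67, SE 0.07) and Sel1l (0.43, SE 0.04) of the degradation machinery rose and Edem1 fell (-0.62, SE 0.03; limma adjusted p = 3.41e-07). The disulfide isomerases Pdia3 (-0.07) and Pdia4 (0.08) did not pass, but Pdia4 passed with quantile normalization (limma adjusted p = 0.0439) and with upper-quartile scaling (0.00832), and Pdia3 without replicate 3 of the ferroptotic medium group (-0.13, 0.0202). The number that fell was 5 with quantile normalization, 4 with upper-quartile scaling and 3 with limma without trend and robust. Dnajc3 (-0.26, SE 0.05) is counted among the genes that fell both here and in the list around eIF2. Splicing of Xbp1, the readout of IRE1 activity, is not seen in gene totals.

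Relatives of the 10 genes did not all follow them. Of 13 listed genes 10 could be tested, and 4 rose, 2 fell and 4 did not pass. Beside these stand 19.7% higher and 22.8% lower over all genes tested. The list holds paralogues and 3 Gadd45 genes, which share a name and stress induction with Ddit3 but are not its paralogues. Gadd45a, a growth arrest gene, rose from 69.6 ± 10.2 to 723 ± 53.4 normalized counts (3.37, SE 0.14; limma adjusted p = 3.3e-07), while Gadd45g fell (-1.26, SE 0.21; limma adjusted p = 0.00124) and Gadd45b did not pass (0.01, SE 0.10). Among the sestrins Sesn1, a p53 target, fell from 1198 ± 25.9 to 680 ± 68.1 (-0.82, SE 0.08; limma adjusted p = 7.49e-05), against the rise of Sesn2, and Sesn3 had 50 reads over the 6 libraries. Cebpd rose (1.32, SE 0.05; limma adjusted p = 2.27e-07), while the myeloid lineage factors Cebpa (0.16, SE 0.10; limma adjusted p = 0.226) and Cebpe (0.24, SE 0.09; limma adjusted p = 0.0677) did not pass, though Cebpe passed with upper-quartile scaling (limma adjusted p = 0.0372) and with limma without trend and robust (0.0427). Trib1 rose (0.82, SE 0.06), and Ppp1r15b rose as given above. Nupr1l did not pass (0.44, SE 0.29; limma adjusted p = 0.267), Trib2 had 3 reads over the 6 libraries, and Ddit4l had no row.

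Of 34 listed leucine zipper factors that can share partners or sites with ATF4 and CHOP, 32 could be tested. Of these 18 rose, 2 fell and 12 did not pass, with a median of 0.41. Over all genes tested 19.7% were called higher and 22.8% lower. Besides Cebpd, those with the smallest p-values were the stress-induced repressor Atf3 (2.13, SE 0.09), the AP-1 repressor Jdp2 (0.94, SE 0.04) and Nfil3 (1.57, SE 0.07), with limma adjusted p-values of 4.56e-07 or lower. The genes that fell were the clock-controlled Dbp, from 185 ± 19.9 to 66.3 ± 15.8 normalized counts (-1.49, SE 0.21; limma adjusted p = 0.000497), and Tef (-0.35, SE 0.11; limma adjusted p = 0.0302). The call of Tef was lost without control replicate 1 (adjusted p = 0.0726) or 3 (0.0887) and without ferroptotic replicate 1 (0.0896) or 2 (0.0971), and with limma without trend and robust (0.074). Atf7 (-0.34, SE 0.35) and Xbp1 were the most abundant that did not pass. The list shares Cebpa, Cebpd and Cebpe with the list of relatives and Atf6 and Xbp1 with the unfolded protein response.

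Of 30 listed genes of the mTORC1 axis, on which Ddit4 and Sesn2 act, 26 could be tested. Of these 4 rose, 8 fell and 14 did not pass, with a median of -0.04 and a range from -0.68 to 0.70, beside the same 19.7% higher and 22.8% lower over all genes tested. The small GTPase genes Rraga (0.70, SE 0.05) and Rheb (0.55, SE 0.04), which recruit and activate the complex, rose. So did Nprl2 (0.41, SE 0.09) and Nprl3 (0.25, SE 0.08; limma adjusted p = 0.0278), of the complex that inhibits the Rag GTPases under amino acid shortage. The call of Nprl3 was lost without control replicate 1 (adjusted p = 0.0926) or 2 (0.0574) and without ferroptotic replicate 1 (0.0819) or 3 (0.0502), and with limma without trend and robust (0.0664). Rptor, which encodes the scaffold of mTORC1, fell (-0.35, SE 0.04; limma adjusted p = 0.000217), as did Txnip (-0.29, SE 0.04). Rragc (-0.10) and Sec13 (-0.06) did not pass.

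Ddit4 is also a target of the glucocorticoid receptor. Of 9 listed genes of that receptor and its targets, 7 could be tested, of which 5 rose, 1 fell and 1 did not pass. The shares over all genes tested were again 19.7% higher and 22.8% lower. Sgk1 (1.25, SE 0.11), Tsc22d3 (1.23, SE 0.11), Dusp1 (0.72, SE 0.08), Per1 (0.34, SE 0.07) and Klf9 (0.27, SE 0.06) rose, Fkbp5 fell (-0.22, SE 0.04; limma adjusted p = 0.00146), and the receptor gene Nr3c1 did not pass (0.09, SE 0.22).

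**Figure D5:**
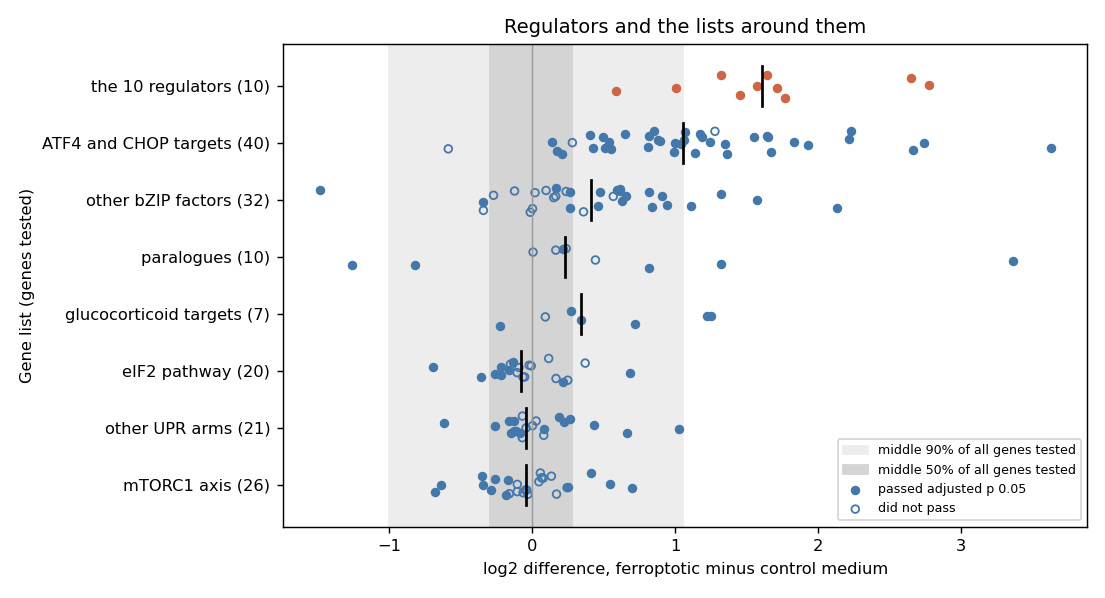
Log2 difference (ferroptotic minus control medium) of each gene tested in the 10 regulators and 7 lists around them; filled points passed a limma adjusted p of 0.05, open points did not, black bars are medians, and bands show the middle 50% and 90% of all genes tested. The regulators (median 1.61) and the ATF4 and CHOP targets (1.05) lie to the right, and the eIF2 pathway (-0.08), other unfolded protein response arms (-0.04) and mTORC1 axis (-0.04) are centred near 0.

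Genes whose pattern over the 6 libraries was most like that of Atf4 and of Ddit3 were found by the Euclidean distance between centred log2 values, over all genes tested. For Atf4 they were A430105I19Rik (distance 0.26), Gipr (0.32), ENSMUSG00000115284 (0.32), 1500002C15Rik (0.39) and A230072E10Rik (0.39), none of them a regulator. Each was lowest in control replicate 1, a feature of Atf4 that the search itself favoured. Gipr, which encodes an incretin receptor, had 56.8, 87.5 and 106 normalized counts with control medium and 246, 258 and 307 with ferroptotic medium. Values near the floor were seen with control medium for ENSMUSG00000115284 (3.92, 8.41 and 7.83) and A230072E10Rik (6.86, 11.8 and 10.8). For Ddit3 the nearest genes were Il1rn (0.12), Slc15a3 (0.13), Mllt11 (0.14), Stard5 (0.14) and Slc25a33 (0.15). Their log2 differences lay between 1.39 and 1.55. As 6 libraries in 2 groups fix most of such a likeness, these names describe these libraries only.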

How the data were processed

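RNA sequencing of 6 microglia samples was analysed from 2 tables. Per the submitters' processing notes, the tools were DESeq2 1.18.1, R 3.4.3, HISAT2 2.1.0 and fastp 0.17.1. Genome build, annotation, counter and strand setting are unstated in the sources used here. The authors deposited log2 values, whose steps fit log2(normalized count + 1), normalized by size factors. Undoing the log gave 100% whole multiples, within 0.01, of 1 read's worth. The authors also deposited p-values, of which only their false discovery rates are quoted, and FPKM values in a shorter table.

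With R 4.3.3 and limma 3.58.1 (trend and robust, two-sided), the group difference was tested in the log2 values of the 15597 genes that reached 10 normalized counts in 3 or more libraries. The Benjamini-Hochberg method adjusted p over all of them, with a threshold of 0.05. Values with ± are means and SDs over 3 libraries, of FPKM where the authors' FPKM values are described and of normalized counts elsewhere. Log2 differences are on the log2(normalized count + 1) scale.

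The 10 genes and all lists were chosen with earlier results of these data known. Beyond the 10, named genes are up to 4 per list with the smallest p-values, up to 2 abundant ones that did not pass, groups of 5 or fewer, relatives of the 10, eIF2 kinases, nearest patterns and scarce markers. Tmem189 and the second Ddit3 model were named after their values were seen, as genes that overlap members in GENCODE M21. Sesn3, Trib2, Csf1r, Spi1, Lyz2, Mbp, Flt1, Pecam1, Gja1, Aldoc, Aldh1l1, Tubb3, S100a8, Dcn and Dnajc3 come from the lists. Alternatives were other scalings, filters, pseudocounts and fits, a replicate block and leaving out each library.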

Additional observations from a re-analysis of the deposited data

How the results depend on the processing

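Of the 16 alternatives, 15 were planned and limma with trend but not robust was chosen after seeing the data. Atf4, Atf5, Ddit3, Cebpb, Cebpg, Nupr1, Trib3, Ppp1r15a, Ddit4 and Sesn2 stayed higher in every one, and all but Atf4 stayed past the threshold in every one, with a largest limma adjusted p of 0.00138, for Nupr1. Atf4 ranged from 1.26 to 1.78 when 1 library was left out and missed the threshold without any 1 library given ferroptotic medium; the cause was not tested. The unfolded protein response genes that fell numbered 5 with quantile normalization, 4 with upper-quartile scaling and 3 with limma without trend and robust, and the leucine zipper genes that fell numbered 1 in that last fit. Leaving out 1 library gave 1 to 3 falling leucine zipper genes, 2 to 4 rising eIF2 genes and 4 to 6 falling eIF2 genes. Some small differences that did not pass changed sign. With quantile normalization Gcn1l1 was 0.0075 and Eif2ak1 0.031, and with upper-quartile scaling they were 0.045 and 0.031. With 1 library left out the ranges were -0.021 to 0.023 for Xbp1, -0.55 to 0.028 for Atf7, -0.052 to 0.023 for Gcn1l1, -0.037 to 0.81 for Pmaip1, -1.31 to 0.27 for Cbs, -0.046 to 0.10 for Gadd45b, -0.12 to 0.23 for Nr3c1 and -0.058 to 0.0087 for Eif2ak1. Same-numbered samples of the groups had correlations of 0.00859, -0.0197 and -0.0393 in their deviations, and no sample correlated best with its own number. With 3 libraries per group, such correlations cannot show whether same-numbered samples shared a culture or batch. With the replicate block all 10 regulators were called higher (Atf4 limma adjusted p = 0.0376), and 2914 genes were higher and 3312 lower, against 3077 and 3552. Of the other named genes, Eif2ak4 (adjusted p = 0.0737), Nprl3 (0.0641) and ENSMUSG00000115284 (0.0576) were no longer called with the block. The lowest value of a regulator was 216 normalized counts, and 3 libraries per group limit the precision.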
